A study of Homo sapiens with 6 samples.

Results

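The enzymes that write and erase methyl groups on histone lysines were examined in HEK293 cells, a line derived from human embryonic kidney, after knockdown of the long noncoding RNA *HSALNG0134318*. Members were chosen by name from the table of gene counts, as the KDM, KMT2, KMT5, SETD and SUV families together with *EZH1*, *EZH2*, *EHMT1*, *EHMT2*, *NSD1*, *WHSC1*, *WHSC1L1*, *DOT1L*, *PRDM2* and *ASH1L*. They also had to hold at least 10 counts in each of the 6 cultures. Of 26485 gene names in the table, 47 fitted the names and 45 also passed the minimum, against 13993 names that passed it in all. *KDM4E*, a gene of the KDM4 family, missed it with counts of 0, 0 and 0 in the knockdown cultures and 0, 1 and 0 in the controls, and *KDM5D* missed it too.

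The 3 knockdown cultures carried the genotype label *HSALNG0134318* knockdown and were made by transient transfection of a Smart Silencer, which combines siRNAs with antisense oligonucleotides, with Lipofectamine RNAiMAX. The 3 control cultures were labelled as negative controls of wild-type genotype, and the sources do not say what they were transfected with. All 6 cultures were of 1 cell line, so transcripts can only be read for that line, and fewer cells of one kind cannot be told apart from less RNA per cell. *HSALNG0134318* itself is not listed in the table, so the group labels could not be checked by the targeted transcript.

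Lysine methylation marks the tails and core of histones H3 and H4 and is read by other proteins according to which lysine carries it. Methyl groups on H3K4, H3K36 and H3K79 are found on transcribed genes, whereas trimethylation of H3K9, H3K27 and H4K20 is found on silent or compacted chromatin. Most writers use a SET domain, *DOT1L* being the exception, and the erasers are either flavin-dependent amine oxidases of the KDM1 family or iron- and oxoglutarate-dependent enzymes with a Jumonji C (JmjC) domain. In the developing kidney several of these enzymes, such as *EZH2*, act in the progenitor cells that form nephrons, and HEK293 cells divide continuously and use many of the same enzymes.

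Each culture held between 13900965 and 16869948 counts on genes, and the members took between 0.60% and 0.69% of them. A member's counts in one culture ranged from 76 to 9251. HEK293 and embryonic kidney markers (7 genes, all tested) gave 0 calls by edgeR or DESeq2 and 1 by limma-voom, with 2 at an unadjusted edgeR p under 0.05, and of 8 markers of blood, liver, connective tissue, endothelial and skin cells, 2 were at 0 in every culture and 2 had enough counts to be tested. These 8 markers summed to 610 to 774 raw counts in the knockdown cultures and 674 to 735 in the controls. Most of these counts were of the connective tissue gene *COL1A1*, with 617, 571 and 699 after knockdown and 693, 658 and 644 in the controls. The number of genes called over the whole table depended on single cultures. It was 1494 in all, 2512 without control replicate 2, and between 530 and 593 without any one knockdown culture. Without control replicate 1 it was 669.

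Knockdown and control cultures differed in 9 of the 45 enzymes, 7 higher and 2 lower after knockdown. The enzymes that rose were the H3K4 methylases *SETD7* and *SETD1A*, the H3K79 methylase *DOT1L*, the H3K9 methylase *EHMT1*, both H3K36 demethylases of the KDM2 family and the H3K4 demethylase *KDM5C*. The enzymes that fell were *EZH2*, the main H3K27 methylase, and *SETD8*, the H4K20 monomethylase. A gene was called where the edgeR quasi-likelihood test gave a Benjamini-Hochberg adjusted p under 0.05 over the 14877 genes tested. Over all of those genes 10% were called, 5.40% higher and 4.64% lower, whereas 20% of the members were called, 15.6% higher and 4.44% lower. Among genes with at least 10 counts in every culture, the minimum that the members had to meet, 10.4% were called.

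The median log2 fold change of the 45 members was 0.05 and that of all genes tested was -0.02. The median size of the change, without its sign, was 0.14 for members and 0.20 for all genes tested, so most members differed by little. The values of the 3 knockdown cultures did not overlap those of the 3 controls for 13 members, or 28.9%, against 32.2% of all genes tested. All 9 called members were among these, and the others were *SUV420H2*, *EHMT2*, *KDM4B* and *KDM8*. An unadjusted edgeR p under 0.05 was reached by 14 of the 45 members, 5 of which were not called. Of the 14877 genes tested, 3996 reached it. Standard errors of the log2 fold changes ranged from 0.08 to 0.18 over the members. The plot of all members by role shows the changes with their errors.

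**Figure D1:**
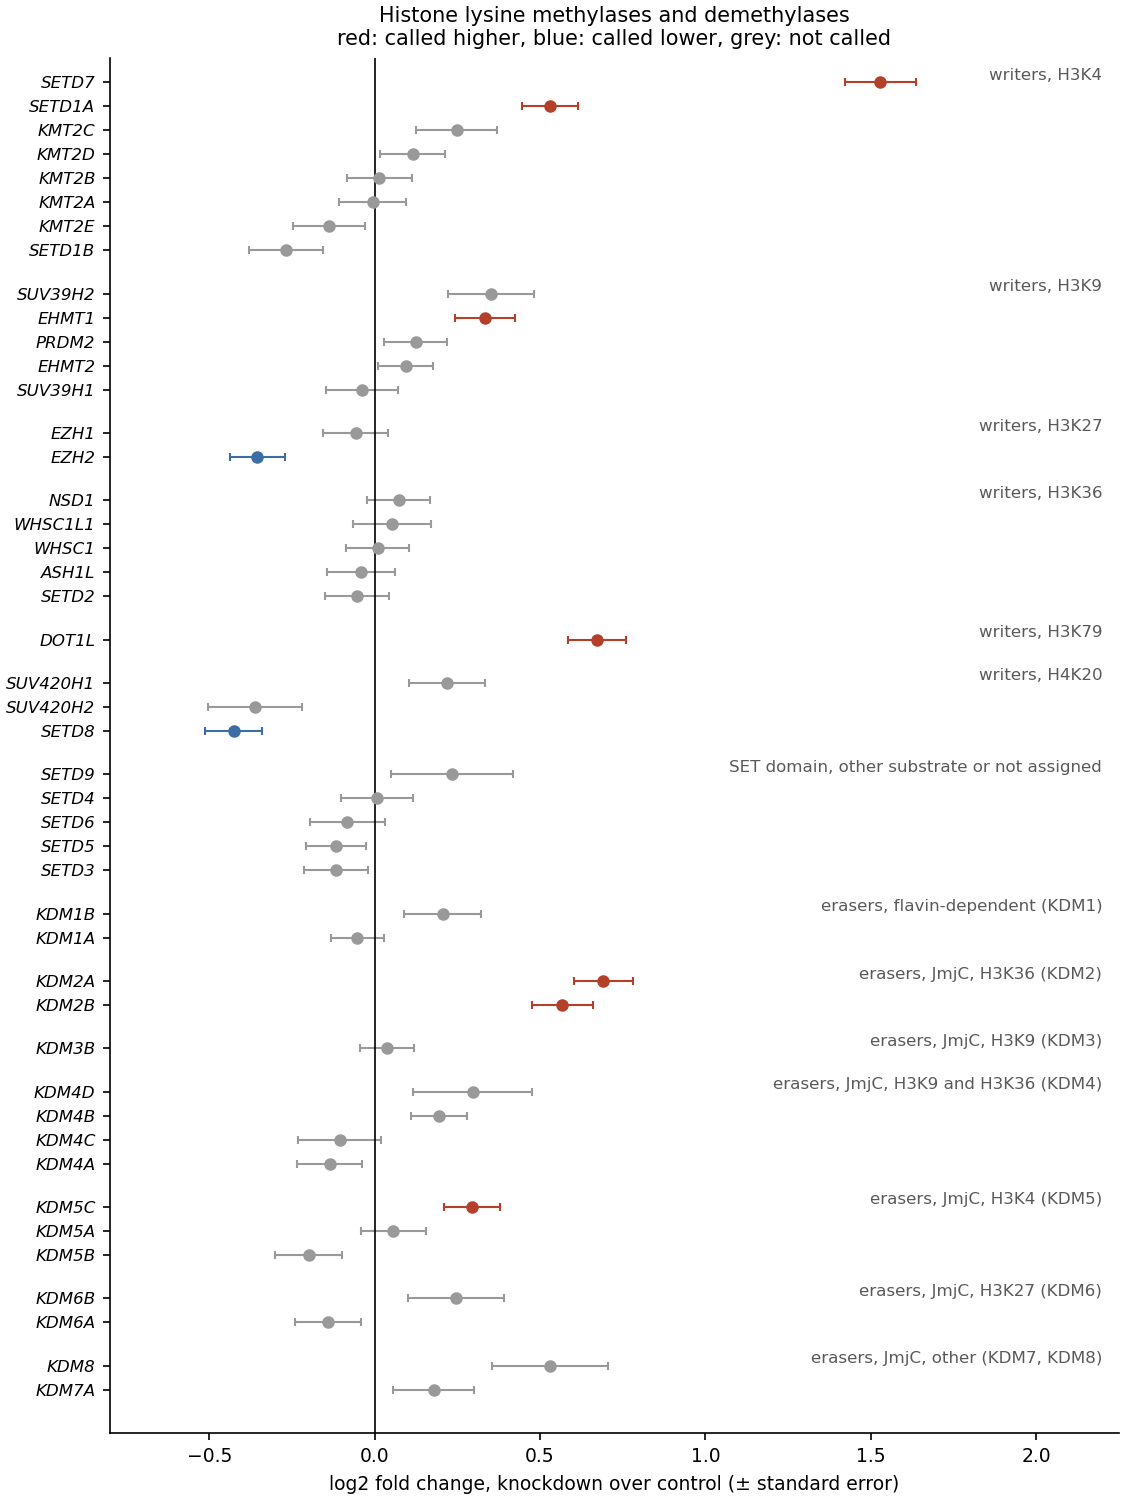
Log2 fold change of knockdown over control for each of the 45 enzymes (points, with bars of 1 standard error from edgeR), grouped by the lysine they act on, with red for called higher, blue for called lower and grey for not called. *SETD7* stands at 1.53, away from all other members, both KDM2 enzymes stand at 0.57 or above, and the 5 H3K36 methylases lie between -0.05 and 0.07.

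Both writers and erasers held calls. Of 24 writers, 2 were lower and 4 higher, with a median log2 fold change of 0.03. Of 16 erasers, edgeR called 0 lower (0 also at an unadjusted p under 0.05) and 3 higher, with a median of 0.19, and all 3 belonged to the 14 JmjC enzymes. The 5 SET-domain genes with another substrate, or with none assigned here, had no call. Over all genes tested 5.40% were called higher and 4.64% lower, so 0 lower calls among 16 erasers lies near the share of all genes. The difference between writers and erasers was not tested.

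The promoters of 5 called members are shown because they include the largest rise, the pair of H3K36 demethylases and both enzymes that fell. Each is the RefSeq window from 250 bases before to 50 bases after the transcription start on GRCh38.p14, written in the direction of the gene. Capitals mark, on either strand, the letters GGGCGG of a GC box, the CCAAT box, the forms TTTGGCGC and TTTCCCGC of an E2F site, the letters AAGATGGCG of a YY1 core and the letters TATAAA of a TATA box. Windows were read on both strands, and the marks may overlap. The *SETD7* window is chr4:139556170-139556469 on the minus strand and lies inside the GENCODE span of the gene. The *KDM2A* window is chr11:67119013-67119312 on the plus strand, and the *KDM2B* window is chr12:121580974-121581273 on the minus strand. The *SETD8* window is chr12:123383882-123384181 on the plus strand, and the *EZH2* window is chr7:148884242-148884541 on the minus strand.
SETD7: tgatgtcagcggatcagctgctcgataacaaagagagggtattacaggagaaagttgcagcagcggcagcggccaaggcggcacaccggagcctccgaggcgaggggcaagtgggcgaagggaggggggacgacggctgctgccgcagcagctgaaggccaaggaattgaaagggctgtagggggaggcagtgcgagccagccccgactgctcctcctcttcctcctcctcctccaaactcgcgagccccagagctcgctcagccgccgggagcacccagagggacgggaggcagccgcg
KDM2A: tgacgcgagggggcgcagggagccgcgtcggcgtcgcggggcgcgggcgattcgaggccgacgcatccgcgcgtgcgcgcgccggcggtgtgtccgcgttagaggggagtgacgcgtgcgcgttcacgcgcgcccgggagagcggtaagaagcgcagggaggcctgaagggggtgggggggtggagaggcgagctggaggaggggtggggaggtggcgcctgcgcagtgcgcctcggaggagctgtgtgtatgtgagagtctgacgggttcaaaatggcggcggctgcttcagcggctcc
KDM2B: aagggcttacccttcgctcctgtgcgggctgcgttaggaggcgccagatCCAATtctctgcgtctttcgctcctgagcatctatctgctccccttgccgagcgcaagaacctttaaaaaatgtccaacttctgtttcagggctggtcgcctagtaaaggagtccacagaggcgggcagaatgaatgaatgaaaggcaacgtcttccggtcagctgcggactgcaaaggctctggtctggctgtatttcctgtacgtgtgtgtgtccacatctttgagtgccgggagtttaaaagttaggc
SETD8: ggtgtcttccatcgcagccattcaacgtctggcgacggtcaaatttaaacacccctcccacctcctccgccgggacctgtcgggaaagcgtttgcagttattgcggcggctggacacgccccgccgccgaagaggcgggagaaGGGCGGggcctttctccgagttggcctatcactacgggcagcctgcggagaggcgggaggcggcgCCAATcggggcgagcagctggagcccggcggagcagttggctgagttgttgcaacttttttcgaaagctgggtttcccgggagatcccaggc
EZH2: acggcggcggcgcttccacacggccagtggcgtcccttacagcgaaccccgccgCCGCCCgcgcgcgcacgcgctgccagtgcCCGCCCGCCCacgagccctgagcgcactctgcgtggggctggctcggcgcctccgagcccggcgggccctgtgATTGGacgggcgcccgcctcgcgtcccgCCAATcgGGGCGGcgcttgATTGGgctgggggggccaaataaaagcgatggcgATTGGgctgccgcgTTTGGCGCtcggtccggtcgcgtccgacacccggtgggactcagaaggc
None of these motifs is written in the *SETD7* or the *KDM2A* window, whereas *KDM2B* held a CCAAT box, *SETD8* held a GC box and a CCAAT box and *EZH2* held a GC box, a CCAAT box and an E2F site.

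Across the 42 members with a RefSeq promoter entry, 35 held a GC box, or 83.3%, against 65.3% of 16793 promoters of genes tested and 45.0% of all 35116 promoters. The GC box was written in 2 of the 6 called-higher members with an entry, *SETD1A* and *EHMT1*, and in both called-lower members. A CCAAT box was written in 16 members, or 38.1%, against 34.3% of promoters of genes tested and 34.6% of all promoters, and among called members in *KDM2B*, *EZH2* and *SETD8*. The E2F letters TTTGGCGC were found in *EZH2* alone among members, against 0.995% of promoters of genes tested and 0.652% of all promoters. The second E2F form was in *WHSC1* and *KDM1B*, or 4.76%, against 2.30% of promoters of genes tested and 1.63% of all. The YY1 core was in 5 members, or 11.9%, *KDM5C* among them, against 3.16% of promoters of genes tested and 1.75% of all promoters. A TATA box was in 0 of 42 members, against 6.51% of promoters of genes tested and 11.5% of all. These are matches of letters within the windows, and no binding was measured.

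Among the 8 writers of H3K4 methylation, *SETD7* and *SETD1A* rose and none fell. *SETD7*, which places a single methyl group on H3K4 and on several non-histone proteins, lies at chr4:139495941-139606699 on the minus strand of hg38. Its normalized counts, scaled to a common library size, were 2278, 2440 and 2372 in the knockdown cultures and 793, 725 and 941 in the controls. Every knockdown culture held more than 2 times the count of every control, and the groups did not overlap. The mean was 2363 ± 81.5 (SD, n = 3) after knockdown and 820 ± 111 (SD, n = 3) in the controls, a 2.88-fold rise at a log2 fold change of 1.53 (standard error 0.11, edgeR adjusted p = 3.2e-05). *SETD7* ranked 6th of all genes tested by adjusted p and 25th by log2 fold change. With single cultures left out, its log2 fold change stayed between 1.45 and 1.65.

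*SETD1A* and *SETD1B* are the catalytic subunits of the SET1 form of COMPASS, the complex that places most H3K4 trimethylation at promoters. *SETD1A* (chr16:30957294-30984664, plus strand) had normalized counts of 2557, 2765 and 2579 after knockdown and 1738, 1829 and 1904 in the controls. All 3 knockdown values lay above all 3 controls, a 1.44-fold rise at a log2 fold change of 0.53 (standard error 0.08, edgeR adjusted p = 0.0031). *SETD1B* had 1262, 1330 and 1339 after knockdown against 1752, 1671 and 1308, at a log2 fold change of -0.27 (standard error 0.11, edgeR adjusted p = 0.15). Control replicate 3 lay among the knockdown cultures, and without that culture the edgeR adjusted p was 0.025 at a log2 fold change of -0.38. Leaving out any other culture gave edgeR adjusted p values from 0.17 to 0.37. The fit without control replicate 3 also called more of all genes tested, 13.75% against 10.04% with every culture.

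The other H3K4 writers of the trithorax type were not called. *KMT2A* and *KMT2B*, the catalytic subunits bound by menin, had log2 fold changes of -0.01 (standard error 0.10) and 0.01 (standard error 0.10). *KMT2C* and *KMT2D*, which act mainly on enhancers, had 0.25 (standard error 0.12) and 0.12 (standard error 0.10). *KMT2E*, a SET-domain protein without a firmly shown methylase activity, had -0.14 (standard error 0.11). The smallest edgeR adjusted p of the 5 was 0.22, for *KMT2C*.

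Of the 5 H3K9 methylases, *EHMT1* rose and the others were not called. *EHMT1* and *EHMT2*, also known as GLP and G9a, form a heterodimer that places mono- and dimethylation on H3K9. *EHMT1* (chr9:137618992-137870016, plus strand) had normalized counts of 2844, 2434 and 2479 after knockdown and 2095, 1979 and 2087 in the controls. The first knockdown culture was the highest and the groups did not overlap, with a 1.26-fold rise, a log2 fold change of 0.33 (standard error 0.09) and an edgeR adjusted p of 0.040. *EHMT2* had 2075, 1863 and 1938 against 1816, 1852 and 1839, which did not overlap either but gave a log2 fold change of 0.09 (standard error 0.08, edgeR adjusted p = 0.51). The call of *EHMT1* was lost without any one knockdown culture and without control replicate 1, with edgeR adjusted p values of 0.168, 0.101, 0.118 and 0.0888.

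*SUV39H1* and *SUV39H2* place H3K9 trimethylation on pericentric heterochromatin. *SUV39H2* had normalized counts of 596, 751 and 794 after knockdown against 612, 512 and 555 in the controls. The first knockdown culture lay below one control, and the log2 fold change of 0.35 (standard error 0.13) was not called (edgeR adjusted p = 0.11). *SUV39H1* had a log2 fold change of -0.04 (standard error 0.11). *PRDM2*, an H3K9 methylase with a PR domain, had 0.12 (standard error 0.09).

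Of the 2 H3K27 methylases, *EZH2* fell and *EZH1* was not called. *EZH2* and *EZH1* are the alternative catalytic subunits of Polycomb repressive complex 2 (PRC2), with *EZH2* prevailing in dividing cells. *EZH2* (chr7:148807257-148884321, minus strand) had normalized counts of 1428, 1430 and 1475 after knockdown and 1933, 1830 and 1780 in the controls. The knockdown cultures lay close together below every control, 21.8% lower by the fit, at a log2 fold change of -0.36 (standard error 0.08, edgeR adjusted p = 0.022). *EZH1* had 960, 934 and 935 against 977, 1064 and 903, which overlapped, at a log2 fold change of -0.06 (standard error 0.10). The call of *EZH2* was lost without any one knockdown culture and without control replicate 1, where the edgeR adjusted p was 0.0900, 0.119, 0.102 and 0.0706. The direction was negative in each of those fits, with log2 fold changes from -0.38 to -0.32 over all fits that left out 1 culture.

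The 5 H3K36 methylases had no call by edgeR, DESeq2 or limma-voom, 0 unadjusted edgeR p values under 0.05 and the narrowest range of any group with at least 5 members. *SETD2*, which places H3K36 trimethylation along transcribed genes, had a log2 fold change of -0.05 (standard error 0.10). *NSD1*, which places H3K36 dimethylation, had 0.07 (standard error 0.09), and its paralogues *WHSC1* (NSD2) and *WHSC1L1* (NSD3) had 0.01 (standard error 0.09) and 0.05 (standard error 0.12). *ASH1L*, a trithorax-group H3K36 methylase, had -0.04 (standard error 0.10). *NSD1* had some of the highest counts of any member, with 6560, 6248 and 6446 normalized counts after knockdown and 6628, 5413 and 6257 in the controls, and these groups overlapped.

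*DOT1L*, the methylase of H3K79 in the core of the nucleosome, rose. Its normalized counts were 2806, 2632 and 2854 after knockdown and 1701, 1871 and 1631 in the controls. The lowest knockdown culture lay well above the highest control, a 1.59-fold rise at a log2 fold change of 0.67 (standard error 0.09, edgeR adjusted p = 0.0011). *DOT1L* lies at chr19:2163933-2232578 on the plus strand, and 529 of the 7652 bases of its transcript are also covered by exons of *PLEKHJ1* on the opposite strand. The strand setting of the count is not given in the sources used here, and *PLEKHJ1* had a log2 fold change of 0.45 (edgeR adjusted p = 0.058). How much reads of one gene added to the other was not tested.

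Of the 3 H4K20 methylases, *SETD8* fell and the pair that follows it was not called. *SETD8* (also KMT5A) places a single methyl group on H4K20 and its protein is made and destroyed with the cell cycle. *SETD8* (chr12:123384132-123409353, plus strand) had normalized counts of 1882, 1998 and 1830 after knockdown and 2666, 2591 and 2416 in the controls. The groups did not overlap, and the fitted level was 25.6% lower, at a log2 fold change of -0.43 (standard error 0.09, edgeR adjusted p = 0.010). Without knockdown replicate 1 the adjusted p was 0.055 and without knockdown replicate 3 it was 0.083, with log2 fold changes of -0.42 and -0.40. *SUV420H1* and *SUV420H2* add further methyl groups. *SUV420H2* had 419, 367 and 405 against 442, 616 and 471, with the second control high above the others, and its log2 fold change of -0.36 (standard error 0.14) was not called (edgeR adjusted p = 0.13). *SUV420H1* had a log2 fold change of 0.22 (standard error 0.11, edgeR adjusted p = 0.25).

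The 5 other SET-domain genes had no call by edgeR, DESeq2 or limma-voom, and 0 had an unadjusted edgeR p under 0.05. *SETD3*, a methylase of histidine in actin, had a log2 fold change of -0.12 (standard error 0.10), and *SETD6*, a methylase of non-histone proteins, had -0.08 (standard error 0.11). *SETD4* had 0.01 (standard error 0.11) and *SETD5* had -0.12 (standard error 0.09). *SETD9* had the fewest counts of all members, with 82.9, 94.9 and 107 normalized counts after knockdown and 83.7, 80.3 and 78.2 in the controls. Its values overlapped between groups, and its log2 fold change of 0.23 had the largest standard error of the members, at 0.18.

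**Figure D2:**
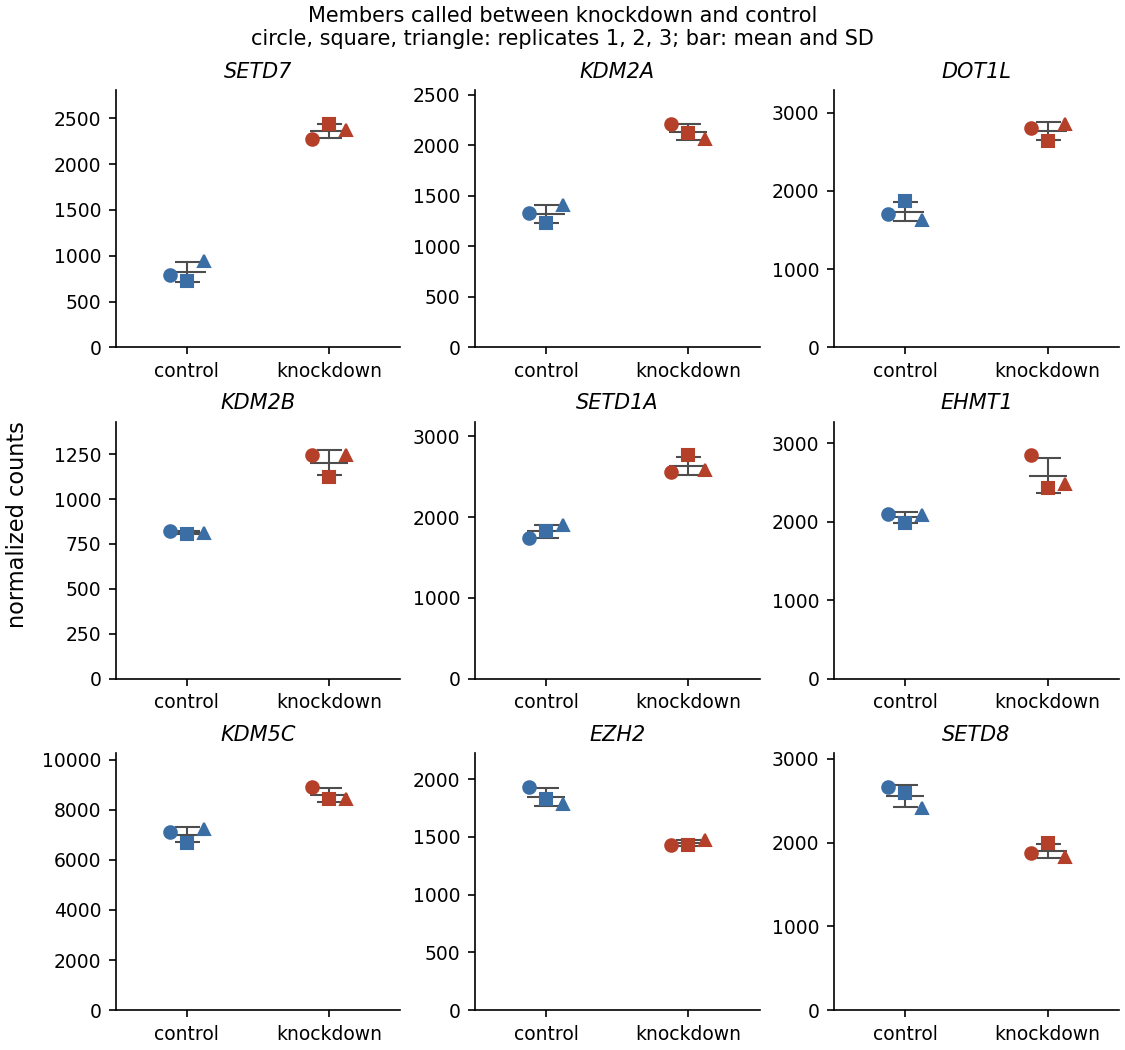
Normalized counts of the 9 called members in each culture (circles, squares and triangles for replicates 1, 2 and 3; blue for control and red for knockdown; bars for the mean and SD of 3 cultures), each on its own axis from 0. The groups are apart in all 9 panels, and the widest gap is that of *SETD7*, from 941 in the highest control to 2278 in the lowest knockdown culture.

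Among erasers, the flavin-dependent enzymes were not called. *KDM1A* (LSD1), which removes mono- and dimethylation from H3K4 within the CoREST complex, had one of the highest levels of all members, with normalized counts of 3486, 3467 and 3414 after knockdown and 3610, 3678 and 3461 in the controls. Its log2 fold change was -0.05 (standard error 0.08), with an overlap of the groups. *KDM1B*, its paralogue, had a log2 fold change of 0.21 (standard error 0.12, edgeR adjusted p = 0.29).

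Both KDM2 enzymes rose. *KDM2A* and *KDM2B* bind unmethylated CpG islands through a CXXC zinc finger and remove dimethylation from H3K36, and *KDM2B* also brings a form of Polycomb repressive complex 1 to these islands. *KDM2A* (chr11:67119263-67258082, plus strand) had normalized counts of 2211, 2125 and 2058 after knockdown and 1325, 1228 and 1407 in the controls, a 1.61-fold rise (log2 fold change 0.69, standard error 0.09, edgeR adjusted p = 0.00098). *KDM2B* (chr12:121429096-121581023, minus strand) had 1242, 1125 and 1243 against 821, 803 and 812, a 1.48-fold rise (log2 fold change 0.57, standard error 0.09, edgeR adjusted p = 0.0034). For both genes every knockdown culture lay above every control, and the controls of *KDM2B* were within a few percent of each other. Of the 5315 bases of the *KDM2B* transcript, 439 are also covered by exons of *RNF34* on the opposite strand, and *RNF34* had a log2 fold change of -0.22 (edgeR adjusted p = 0.21).

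The KDM3 and KDM4 enzymes were not called. *KDM3B*, an H3K9 demethylase, had a log2 fold change of 0.04 (standard error 0.08). Of the KDM4 enzymes, which act mainly on trimethylated H3K9 and H3K36, *KDM4B* had normalized counts of 1996, 1834 and 1879 after knockdown and 1598, 1730 and 1659 in the controls. These did not overlap, but the log2 fold change of 0.19 (standard error 0.08) was not called (edgeR adjusted p = 0.16). *KDM4A* had -0.14 (standard error 0.10) and *KDM4C* had -0.11 (standard error 0.12). *KDM4D*, a gene with few counts, had 150, 140 and 137 against 103, 103 and 143, at a log2 fold change of 0.30 (standard error 0.18) and overlapping groups.

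Of the 3 KDM5 enzymes, which remove di- and trimethylation from H3K4, *KDM5C* rose. *KDM5C*, a gene on the X chromosome known from inherited intellectual disability, had the most counts of all members. Its normalized counts were 8917, 8440 and 8424 after knockdown and 7099, 6668 and 7246 in the controls, which did not overlap. The rise was 1.23-fold (log2 fold change 0.30, standard error 0.08), and its edgeR adjusted p of 0.048 lay close to the threshold. The call was lost without any one knockdown culture (0.178, 0.173 and 0.167) and without control replicate 1 (0.103), by edgeR adjusted p. It was also lost with DESeq2's size factors in edgeR (0.05004) and with no filter on low counts (0.055). The gene spans chrX:53176283-53225422 on the minus strand. *KDM5A* had a log2 fold change of 0.06 (standard error 0.10), and *KDM5B* had -0.20 (standard error 0.10, edgeR adjusted p = 0.23).

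The remaining JmjC enzymes were not called. *KDM6A* (UTX) and *KDM6B* (JMJD3), which remove trimethylation from H3K27, had log2 fold changes of -0.14 (standard error 0.10) and 0.25 (standard error 0.14). *KDM7A*, which acts on H3K9 and H3K27, had 0.18 (standard error 0.12). *KDM8*, a JmjC protein for which hydroxylase activity is also known, had normalized counts of 176, 150 and 181 after knockdown and 105, 106 and 141 in the controls. The groups were apart by a narrow gap. The log2 fold change of 0.53 was as large as that of *SETD1A*, but with a standard error of 0.18 it was not called (edgeR adjusted p = 0.081). Without control replicate 3 its log2 fold change was 0.69 and the edgeR adjusted p 0.029. Leaving out any other culture gave edgeR adjusted p values from 0.093 to 0.26.

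Compared per kilobase of transcript, members differed far more from each other than between the groups. In the controls the levels ran from 39.4 ± 7.86 normalized counts per kilobase (SD, n = 3) for *KDM4D* to 1206 ± 51.7 for *KDM5C*. *KDM1A* came second at 1161 ± 35.98, within the spread of *KDM5C*, and *SETD8* and *EZH2* followed at 921 ± 46.3 and 696 ± 29.3. Both enzymes that fell were thus among the 4 highest members in the controls. *SETD7* came 39th of 45 in the controls at 120 ± 16.3, within the spread of its neighbours *SETD6* and *KDM4C* at 122 ± 8.23 and 120 ± 0.697, and stood at 347 ± 12.0 after knockdown. *KDM2A* and *KDM2B* came 33rd and 35th in the controls at 179 ± 12.2 and 153 ± 1.71, and *DOT1L* came 25th at 227 ± 16.1. After knockdown these 3 stood at 289 ± 10.4, 226 ± 12.8 and 361 ± 15.3.

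**Figure D3:**
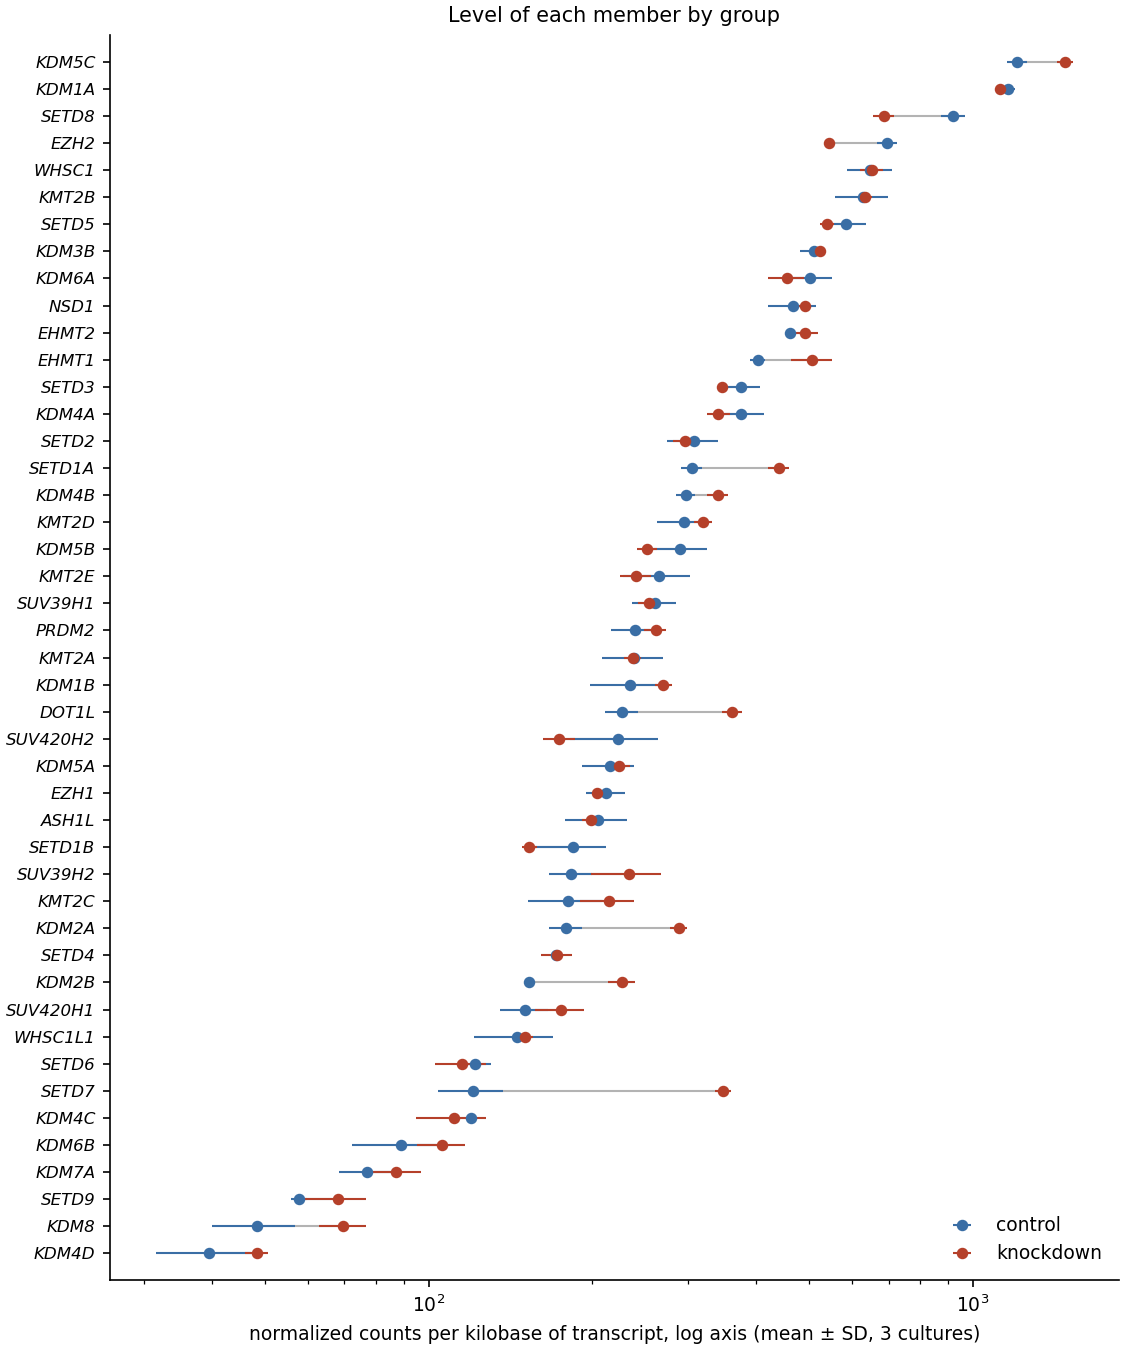
Level of each member as normalized counts per kilobase of the Ensembl canonical transcript, on a log axis, with points and bars for the mean and SD of 3 control cultures (blue) and 3 knockdown cultures (red), ordered by the controls. *SETD7* moves from 120 to 347, the longest line of the plot, while *SETD8* and *EZH2* near the top move down from 921 and 696.

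Paralogues were also compared by the log2 ratio of their counts within each culture, which does not depend on how the libraries were scaled. The groups did not overlap for 6 of 13 pairs. How often this happens for other pairs of genes was not measured, so the count has no share to be read against. The pairs with *SETD1A*, *EZH2* and *EHMT1* each hold a member already called above. With 3 cultures a group, the smallest p that the two-sided exact permutation test allows is 0.10, so no pair could pass the threshold, and each of the 6 had that p (adjusted over the 13 pairs, 0.217). The log2 ratio of *SETD1A* to *SETD1B* was 1.01 ± 0.06 (SD, n = 3) after knockdown and 0.22 ± 0.29 in the controls, the widest shift of all pairs at 0.79. *SUV420H1* over *SUV420H2* differed by 0.57 and *EZH1* over *EZH2* by 0.30. *EHMT1* over *EHMT2* differed by 0.24, *KDM1A* over *KDM1B* by -0.27 and *KDM4A* over *KDM4B* by -0.33. Without control replicate 2 the difference of *SUV420H1* over *SUV420H2* was 0.34 and that of *KDM1A* over *KDM1B* was -0.12. The ratio of *KDM2A* to *KDM2B*, the pair in which both genes rose, was 0.83 ± 0.10 after knockdown and 0.70 ± 0.09 in the controls, which overlapped.

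**Figure D4:**
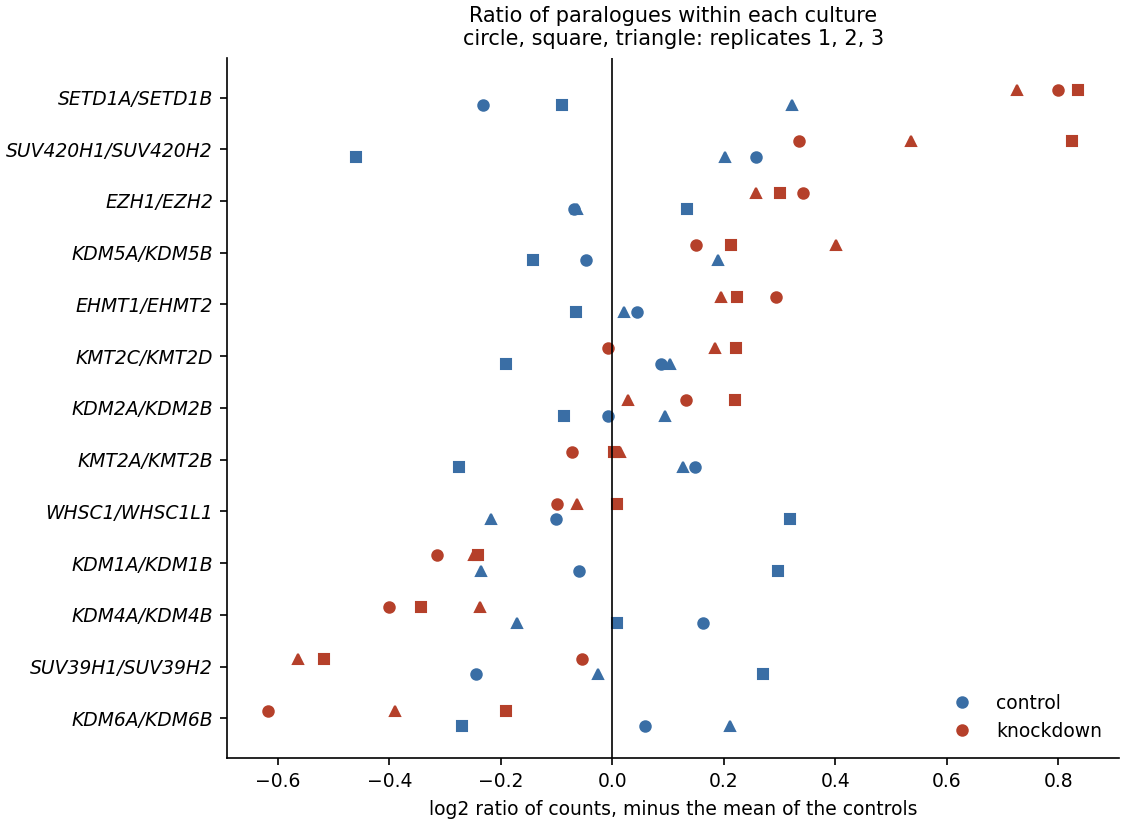
Log2 ratio of counts of 13 paralogue pairs in each culture (circles, squares and triangles for replicates 1, 2 and 3; blue for control and red for knockdown), minus the mean of the controls. For *SETD1A* over *SETD1B* the 3 knockdown cultures lie to the right of all controls, with a mean difference of 0.79, while for *KMT2A* over *KMT2B* the groups overlap with a mean difference of -0.02.

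Subunits that work beside these enzymes were examined next. Of the 13 tested subunits of COMPASS and MLL complexes 0 were called by edgeR, DESeq2 or limma-voom and 4 had an unadjusted edgeR p under 0.05, 2 of them negative. Their median log2 fold change was -0.10. These include *WDR5* (-0.10), *RBBP5* (0.07) and *ASH2L* (-0.19), of the core on which *SETD1A* and the KMT2 enzymes assemble. The 4 at an unadjusted p under 0.05 were *WDR82* (-0.32), *PAXIP1* (-0.20), *HCFC1* (0.19) and *PAGR1* (0.32). Their edgeR adjusted p values ran from 0.076 to 0.17. Of 9 PRC2 subunits 0 were called by any of the 3 tools and 3 had an unadjusted edgeR p under 0.05, 2 of them negative, at a median of -0.08. A negative log2 fold change was found in 8 of these 9, against 52.7% of all genes tested. The positive one was *JARID2*, which helps to recruit the complex, at 0.31 (standard error 0.12, edgeR adjusted p = 0.11), with groups that did not overlap. *EED*, the subunit that reads H3K27 trimethylation, had -0.39 (standard error 0.13, edgeR adjusted p = 0.086). The groups of *EED*, *MTF2* and *RBBP7* did not overlap either, each with a negative log2 fold change. Groups did not overlap for 32.2% of all genes tested. Of the 9 HP1 proteins and other H3K9 readers and partners (median -0.09) edgeR called 0, limma-voom 1 and DESeq2 2. An unadjusted edgeR p under 0.05 was found for 5, 3 of them negative. *UHRF1* and *CBX3*, both at -0.29, lay just above the threshold (edgeR adjusted p 0.0506 and 0.0519). Of 16 further lysine methylases and demethylases outside the naming rule (median 0.02) the 3 tools called 0, with 1 at an unadjusted edgeR p under 0.05. Over all genes tested, 10% were called, and 3996 of the 14877 had an unadjusted edgeR p under 0.05.

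The CoREST complex that holds *KDM1A* had 3 calls among 8 tested subunits. *RCOR1*, the scaffold that binds *KDM1A* to nucleosomes, fell, with 970, 999 and 930 normalized counts after knockdown against 1405, 1258 and 1268 (log2 fold change -0.44, standard error 0.09, edgeR adjusted p = 0.013). *HDAC1*, a deacetylase of the complex, rose, with 3825, 3552 and 3450 against 1950, 1964 and 2432 (log2 fold change 0.77, standard error 0.10, edgeR adjusted p = 0.0013). *HDAC2*, the other deacetylase on the list, was not called (log2 fold change -0.03, standard error 0.08, edgeR adjusted p = 0.85). Its mean normalized count in the controls was 4833, against 2115 for *HDAC1*. *HMG20B*, a subunit with an HMG box, rose at a log2 fold change of 0.51 (standard error 0.10, edgeR adjusted p = 0.0096). The 3 called genes did not move one way, and the median of the list was -0.02. *HDAC1* was called in each of the 14 other settings. The call of *RCOR1* was lost without any one knockdown culture and without control replicate 1 (edgeR adjusted p 0.057, 0.061, 0.092 and 0.055), and that of *HMG20B* without knockdown replicate 1 or 3 (0.0504 and 0.064).

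Of 20 proliferation genes, edgeR called 3 lower, or 15%, against 4.64% of all genes tested, and 0 higher, with 1 positive gene at an unadjusted p under 0.05. DESeq2 called 4 of the 20 and limma-voom 3. A negative log2 fold change was found in 17 of them, or 85%, against 52.7% of all genes tested, at a median of -0.10. The called genes were *PCNA* (-0.35), *CDK1* (-0.47) and *RRM2* (-0.32), which serve DNA replication and entry into mitosis. *PCNA* and *RRM2* were not called without any one knockdown culture (edgeR adjusted p 0.055, 0.15 and 0.165 for *PCNA*, 0.101, 0.173 and 0.152 for *RRM2*) or without control replicate 1 (0.057 and 0.082), and *CDK1* was not called without knockdown replicate 3 (0.057). Scaled for library size, the counts of the list summed to between 98068 and 99497 in the knockdown cultures and between 98971 and 108430 in the controls, so the sums overlapped through control replicate 2. The part of these genes' changes in the lower *EZH2* and *SETD8* was not tested.

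The base composition of the transcripts was set beside the calls. The median GC content was 57.0% for the 7 members called higher, 47.3% for the 2 called lower and 47.8% for the 36 not called, against 48.6% for all genes tested. *SETD7*, the member that rose most, had 42.5%, below that of all genes tested. These differences in composition were not tested. After each library was corrected for the dependence of its counts on GC content and length, all 9 members were still called. *SETD7* then had a log2 fold change of 1.52, *KDM2A* 0.64, *DOT1L* 0.64, *SETD8* -0.47 and *EZH2* -0.37. That fit called 13 members, 4 lower and 9 higher, the added ones being *SETD1B*, *SUV420H2*, *SUV39H2* and *SUV420H1*. It also called more of all genes, 2869 of 14456 tested, or 19.85%, against 10.04% in the reported fit.

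Calls of 5 members, *SETD7*, *KDM2A*, *DOT1L*, *KDM2B* and *SETD1A*, held in each of 14 other settings of the analysis, which changed the scaling, the filter, the test or the cultures used. Over these settings the highest adjusted p was 0.00082 for *SETD7* (edgeR, DESeq2 or limma-voom by setting), 0.010 for *KDM2A*, 0.012 for *DOT1L*, 0.035 for *KDM2B* and 0.031 for *SETD1A*. *EHMT1* and *EZH2* were called in 9 of 14, *KDM5C* in 7 and *SETD8* in 12, as the plot of calls by setting shows. No called member changed direction in any of the 14.

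**Figure D5:**
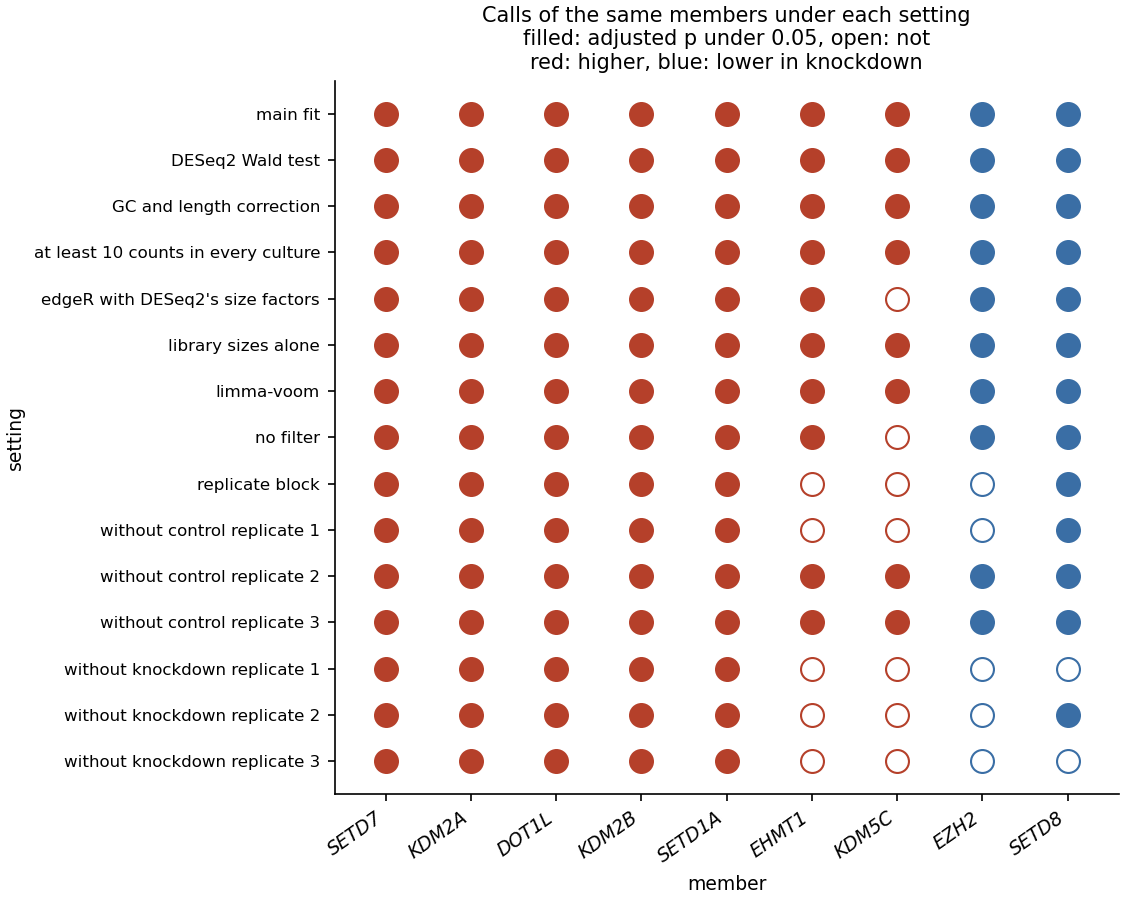
Calls of the 9 members (columns) in the reported fit and 14 other settings (rows), filled where the adjusted p was under 0.05 and open where it was not, with red for higher and blue for lower after knockdown. The first 5 columns are filled throughout, and the open circles of *EHMT1*, *KDM5C* and *EZH2* fall mostly in the fits that leave out 1 culture.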

How the data were processed

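RNA-seq was measured in 6 HEK293 cultures, 3 after *HSALNG0134318* knockdown and 3 controls, grouped by their labels, which name 3 biological replicates per group. The authors deposited raw counts per gene as whole numbers. Reads of polyadenylated RNA in stranded libraries were, by the submitters' processing notes and the study's methods, processed with FastQC 0.11.9, Trim Galore 0.6.6, SortMeRNA, STAR 2.7.9a and featureCounts 2.0.1 on hg38. The methods name other versions of the last tools. The annotation, the strand setting and the handling of multi-mapping reads are not given in the sources used here, so genes that share exons or near-identical sequence are uncertain.

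Counts were filtered with filterByExpr, scaled by TMM and tested with edgeR 4.0.16 in R 4.3.3 (robust quasi-likelihood F test, no block), with Benjamini-Hochberg adjustment over 14877 genes. On simulated counts of 14722 genes with 200 changed by 2-fold, edgeR recovered 195 with 12 false calls. The 200 were drawn from genes above a minimum level, and counts were drawn independently for each culture. No effect of a single culture was simulated, so these figures do not cover the dependence of the calls on single cultures. Recovery of changes smaller than 2-fold was not tested, and among the called members only *SETD7* (2.88-fold) changed by more than that. To give normalized counts, each count was scaled to the mean of the effective library sizes. Positions, transcript length and GC content came from GENCODE release 44 on hg38, where all 45 members were matched, 5 through a RefSeq synonym (*WHSC1*, *WHSC1L1*, *SETD8*, *SUV420H1* and *SUV420H2*). Promoters came from RefSeq.

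The rule for named genes took the called members, the lowest and highest of each role group, the 3 members with the most and the 3 with the fewest counts, both genes of each pair and up to 5 called genes per partner list. The remaining members were added so that each is accounted for. Members, lists and tests were chosen with earlier results of these data known. Alternatives were DESeq2's size factors, library sizes alone, the unfiltered table, a minimum of 10 counts per culture, a block for replicate number, DESeq2 1.42.0, limma-voom (limma 3.58.1) and each culture left out in turn. A loess correction for GC content and length (span 0.3) was chosen after seeing the data. The level of *KDM5D* and 1 further gene of the KDM family are not reported here.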

Additional observations from a re-analysis of the deposited data

How the results depend on the processing

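The replicate numbers of the labels were tried as a block. Same-numbered cultures did not deviate together (correlations of -0.20, -0.11 and -0.04). Over all pairings of a knockdown with a control culture the correlations ran from -0.20 to 0.16. With 3 cultures a group these values cannot tell whether same-numbered cultures were prepared together. With the replicate block, 619 genes were called lower and 714 higher, and 6 members were called, 1 lower and 5 higher, *EHMT1* (edgeR adjusted p 0.0958), *KDM5C* (0.16) and *EZH2* (0.073) being lost. *PCNA* (0.077) and *RRM2* (0.115) were lost as well. The cause was not tested. Leaving out 1 culture moved the genes called from 530 (without knockdown replicate 3) to 2512 (without control replicate 2), the members called from 5 (without knockdown replicate 1 or 3) to 11 (without control replicate 3) and the partner-list genes called from 1 (without knockdown replicate 3) to 16 (without control replicate 3), against 1494, 9 and 6, and it left 2 cultures in one group. The correction for GC content and length gave 2869 genes, 13 members and 21 partner-list genes, with a member median of -0.0099. The cause was not tested.

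Members with log2 fold changes near 0 changed sign. Leaving out 1 culture gave -0.14 to 0.046 for *ASH1L*, -0.11 to 0.0045 for *EZH1*, -0.028 to 0.13 for *KDM5A*, -0.076 to 0.10 for *KMT2A*, -0.068 to 0.082 for *KMT2B*, -0.0058 to 0.14 for *NSD1*, -0.13 to 0.028 for *SETD2*, -0.039 to 0.055 for *SETD4*, -0.093 to 0.039 for *SUV39H1*, -0.059 to 0.066 for *WHSC1* and -0.073 to 0.16 for *WHSC1L1*. It gave -0.16 to 0.055 for the ratio of *KMT2A* to *KMT2B* and -0.16 to 0.11 for that of *WHSC1* to *WHSC1L1*. *KMT2A* was 0.0041 with library sizes alone, 0.0009 with the replicate block and 0.0011 with limma-voom. With the GC and length correction *KDM3B* was -0.018, *KMT2B* -0.019, *NSD1* -0.0099, *SETD4* -0.034 and *WHSC1* -0.043. At 3 cultures a group, changes of this size were not detectable beyond standard errors of 0.08 or more.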
